A study of Mus musculus with 2 samples.

Results

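The precursors described here are the 201 rows of the deposited miRNA tables named miR-6896 to miR-7093, out of 1187 precursors in all. They were chosen by number alone, with letter and copy suffixes ignored and rows without counts kept. The small RNA is that of mouse hindlimb muscle, made ischemic by surgical loss of the femoral artery and sampled 1 day later. The hypercholesterolemic library (HC) carries the genotype ApoE-/-, and the series' design text adds a high fat diet. Its strain is not given in the labels. The normocholesterolemic library (NC) is a C57Bl/6 control, and both libraries come from operated, ischemic muscle. With 1 library in each group and no number of mice stated for it, the spread between animals is unknown. No test over animals was possible, and genotype and diet cannot be told apart.

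A miRNA is usually cut from a longer transcript by the nuclear enzyme Drosha and then trimmed by Dicer. A mirtron bypasses the first cut: the splicing machinery excises a short intron, which is debranched and folds into the hairpin that Dicer recognises. In a tailed mirtron the hairpin lies at one end of a longer intron, so splicing sets one end and the extra intron sequence must be removed. Introns begin with GU and end with AG, and a stretch rich in C and U precedes the end. Mirtron hairpins carry these features into their arms. Most mirtrons are poorly conserved and weakly expressed compared with the classical miRNAs of muscle.

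The sequences of the 8 precursors with the most counts that had an entry in the RefSeq table (GRCm38.p6) show this design. The first set gives hairpins, 5′ to 3′, with capitals on the first and last bases of the intron where they fall within the hairpin. The hairpin of miR-6945 overlaps an annotated untranslated exon, and only its mature products are given.
mmu-mir-7068: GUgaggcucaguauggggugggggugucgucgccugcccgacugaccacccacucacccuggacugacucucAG
mmu-mir-6944: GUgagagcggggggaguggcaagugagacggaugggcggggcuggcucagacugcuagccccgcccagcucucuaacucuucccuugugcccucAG
mmu-mir-6901: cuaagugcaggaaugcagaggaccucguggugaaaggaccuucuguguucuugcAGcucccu
mmu-mir-6896: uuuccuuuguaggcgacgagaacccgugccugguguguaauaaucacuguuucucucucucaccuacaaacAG
mmu-mir-6990: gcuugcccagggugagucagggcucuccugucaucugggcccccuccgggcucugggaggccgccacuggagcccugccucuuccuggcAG
mmu-mir-7093: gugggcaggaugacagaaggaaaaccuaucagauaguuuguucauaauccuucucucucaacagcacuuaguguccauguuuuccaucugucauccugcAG
mmu-mir-6922: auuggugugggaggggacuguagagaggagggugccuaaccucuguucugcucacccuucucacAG

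In miR-7068 and miR-6944 the hairpin is the entire intron. In miR-6901 the hairpin runs past the intron end into the next exon, and in the other 4 printed hairpins only the last bases are an intron end.

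The mature products of miR-7068, miR-6944 and miR-6945, the 3 precursors with the most counts, follow with those that share the 3p seed of miR-7068, with the seed (bases 2 to 8, which pair with targets) in capitals.
mmu-miR-7068-5p: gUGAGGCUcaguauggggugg
mmu-miR-7068-3p: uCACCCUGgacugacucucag
mmu-miR-7018-3p: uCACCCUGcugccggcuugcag
mmu-miR-7023-3p: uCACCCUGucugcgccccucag
mmu-miR-6944-5p: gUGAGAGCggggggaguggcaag
mmu-miR-6944-3p: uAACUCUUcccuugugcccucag
mmu-miR-6945-5p: uCCUGGGAggggcagccccugg
mmu-miR-6945-3p: uCUGAGCUcugcccuucccau

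The seeds of the 5p and 3p arms differ within each hairpin. The deposited counts are per hairpin, so they do not say which arm the reads came from, nor how long the reads were. Reads of unspliced host RNA or of the excised intron cannot be told apart from miRNA reads in any of these hairpins.

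The hairpins lay where mirtrons lie, at intron ends. By the GENCODE M21 annotation of the same assembly, 188 of the 201 hairpins (93.5%) ended within 5 bases of the 3′ end of an intron on their own strand, and 187 of them ended exactly there. Of the 188, 173 met the 3′ end only and 15 met both intron ends. Another 7 hairpins, among them miR-6901, ran 6 or 7 bases past the intron's 3′ end into coding exon sequence, which brings the count at or just past such an end to 195. The remaining precursors were 4 at an intron's 5′ end, 1 elsewhere in an intron (miR-7036b) and miR-7025, which overlaps coding exon sequence of Pdgfra, the gene of a platelet-derived growth factor receptor. All 201 lay in protein-coding genes, 196 different ones, and 5 genes held a pair of them.

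Other number ranges were laid out differently. A hairpin met an intron's 3′ end in 15 of the 121 precursors above miR-7093 (12.4%), in 20 of the 337 from miR-1000 to miR-6895 (5.93%) and in 2 of the 528 numbered below 1000 or named let-7 (0.379%). In the last group 265 hairpins lay elsewhere in an intron and 194 lay outside genes or on the opposite strand of a gene. None of the 201 lay outside genes or on the opposite strand.

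**Figure D1:**
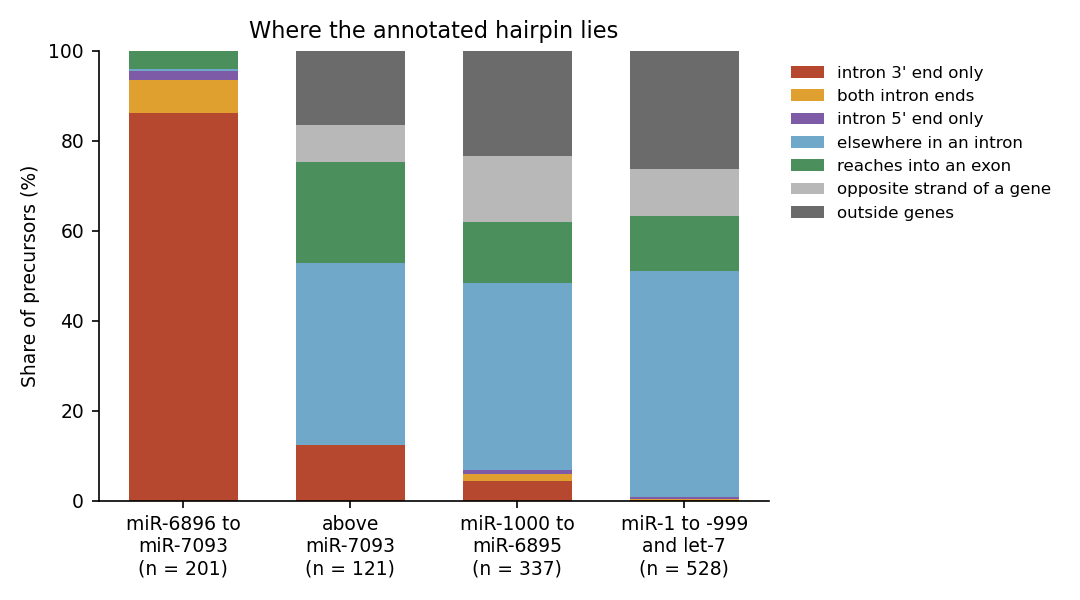
Share of precursors (%, vertical axis) by where the annotated hairpin lies, for 4 ranges of miRNA number (horizontal axis, with n). In the left bar, miR-6896 to miR-7093, the hairpins at an intron 3′ end (173 at that end only and 15 at both ends) make up 93.5%, against 12.4% or less in the other bars.

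The amount of intron before the hairpin varied widely. In the 173 precursors at the 3′ end only, a median of 514 bases (quartiles 102 and 1410) preceded the hairpin, from 7 bases to the 36205 bases of miR-6899 in Klf7, the gene of a zinc finger transcription factor. The 15 introns with both ends met were short, from 67 bases for miR-6970 in Skiv2l, the gene of an RNA helicase that assists the cytoplasmic exosome, to 137 bases for miR-7060 in Fbrs. By position, the tailed form was thus the main one, and hairpins with both ends met were a small part. Whether these hairpins are processed as mirtrons was not tested.

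Base composition followed the splice sites. The bases at the hairpin ends restate the positions above, because introns begin with GU and end with AG. RefSeq hairpins were available for 180 of the 201 precursors and for 790 of the 986 others. They ended in AG in 167 of the 180 (92.8%) and in 69 of the 790 (8.73%). They began with GU in 10 of the 12 hairpins with both ends met and an entry. Of the other 2, miR-7088 begins with GC at the intron start and miR-7082 begins 4 bases before it. The hairpins were shorter than those of the other precursors, with a median of 66 bases against 83, and held more G and C, with a median of 57.1% against 50.0%. The 34 hairpins of other numbers at an intron 3′ end had a median of 64.5 bases and 56.5% G and C, near the values of the 180.

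The arms were unlike each other in base composition. The 172 listed 5p products were rich in G, with a median of 44.7% against 27.3% in the 5p products of other precursors. The 172 listed 3p products were rich in C and U, with a median of 72.5% against 52.2%, and 135 of them (78.5%) ended in AG, against 10.6% of other 3p products. Of the 172, 129 ended at the last base of the hairpin, so their endings largely restate its position too. Other precursors at an intron 3′ end had similar arms, with a median of 43.2% G in 5p products and 68.2% C and U in 3p products. The 344 products carried 315 different seeds. Only 24 seeds occurred in at least 2 of the precursors, and none in more than 3.

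Seeds shared with better known miRNAs and among the precursors are shown by 3 further products, again with bases 2 to 8 in capitals.
mmu-miR-6911-5p: uGGGCUGAgugggucuguggcau
mmu-miR-6922-5p: uGUGGGAGgggacuguagagagg
mmu-miR-6932-3p: uCUGUUCUgcuuccucugcag

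The seed of miR-6911-5p recurs in miR-7028-5p and miR-7079-5p, whose precursors had 0 counts in HC and 0 and 4 in NC. That of miR-6922-5p recurs in miR-6993-5p, with 0 counts in both libraries, and miR-7008-5p, with 1 in HC and 0 in NC. The seed of miR-6932-3p recurs in miR-7039-3p and in the passenger strands miR-26a-2-3p and miR-26b-3p of an abundant miRNA family. miR-6932 had 5 counts in HC and 4 in NC, and miR-7039 had none. The seed of miR-6945-3p, printed earlier, recurs in miR-6927-3p, whose precursor had 0 in both. Among the precursors described here that share each of these seeds, a single one thus held most of the counts. With other miRNAs included this fails for the seed of miR-6932-3p, where a miR-26 precursor had 1462440 counts in all. The seed of miR-6911-5p also recurs in miR-7662-5p, with 3 counts in all, and that of miR-6922-5p in miR-705, with 0. Not every shared seed was so divided: miR-6960-5p and miR-7093-5p share AGGAUGA, and their precursors had 12 and 17 counts in all. A shared seed says nothing here of targets.

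Few reads fell in these precursors. Of 31198050 counts over all precursors in HC, 653 (0.00209%) lay in the 201. Of 43848576 counts in NC, 1103 (0.00252%) did. The tissue label was checked on 7 miRNAs of skeletal muscle, all of them present, among them miR-133a-1 at 65127 CPM in HC and 65383 in NC. Their log2 ratios of HC over NC ran from -0.40 (miR-486a) to 0.63 (miR-499), 4 below 0 and 3 above. The liver miRNA miR-122 had 0.214 and 0.215 CPM. CPM is the count per 1000000 of a library size that was scaled by the trimmed mean of M-values (TMM), a method that assumes most precursors do not differ. The share of counts outside all precursors was 55.9% in HC and 44.1% in NC, and its part in the values below was not tested.

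Most of the 201 precursors had no count or a handful. In HC 76 had at least 1 count, 37.8% (exact Clopper-Pearson interval 31.1 to 44.9%), and in NC 94 did, 46.8% (39.7 to 53.9%). Counts stood in both libraries for 52, in HC alone for 24, in NC alone for 42 and in neither for 83. For the 986 other precursors these numbers were 547, 40, 50 and 349. For the 121 above miR-7093 they were 37, 10, 12 and 62. A count of 0 allows up to 0.0918 CPM in HC and 0.0717 CPM in NC, so absence was not shown for any precursor without counts. If NC were thinned to the total of HC, 84.6 of the 201 would be expected to keep a count, still above the 76 of HC. At the edges of the number range, miR-6896 had 10 counts in HC and 18 in NC and miR-7093 had 8 and 9. The next listed number above, miR-7094, had 1 and 0 in each of its 2 copies, and the next below, miR-6769b, had 0 in both. With both libraries summed, 66 precursors had 1 to 3 counts and 20 had at least 10.

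Precursors numbered below 1000 were detected more often, and the other ranges about as often. At least 1 count stood in 74.2% of precursors below number 1000 in HC and in 74.4% in NC. From miR-1000 to miR-6895 the shares were 43.9% and 46.0%, and above miR-7093 they were 38.8% and 40.5%. From miR-6896 to miR-7093 they were 37.8% and 46.8%. None of the 201 reached 1000 counts summed over both libraries, nor did any of the 121 above miR-7093. That level was reached by 35.4% of the precursors below number 1000 and 5.34% of those from miR-1000 to miR-6895. Precursors of other numbers at an intron 3′ end were few, 37, and 25 of them (67.6%) had a count in at least 1 library, against 58.7% of the 201. Of 3 older mirtrons, miR-877 had 51 counts in HC and 68 in NC, miR-702 had 4 and 5, and miR-1224 had 2 and 0.

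**Figure D2:**
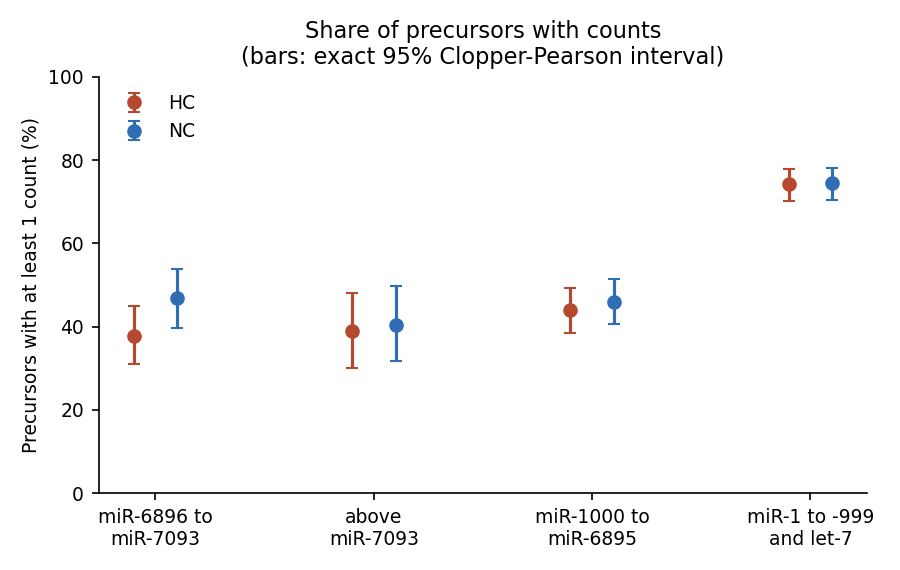
Share of precursors with at least 1 count (%, vertical axis) in HC and NC for 4 ranges of miRNA number (horizontal axis). Points are shares and bars exact 95% Clopper-Pearson intervals; miR-6896 to miR-7093 have lower shares (37.8% and 46.8%) than the oldest numbers (74.2% and 74.4%).

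Tailed precursors and those with both ends met were detected about equally often. A count in at least 1 library was found for 101 of the 173 tailed precursors (58.4%) and for 8 of the 15 with both ends met (53.3%). Among tailed precursors the share was 55.8% (24 of 43) with under 100 bases before the hairpin, 55.6% (40 of 72) with 100 to 1000 bases and 63.8% (37 of 58) with more. The reads were fewest for short tails, the group with the fewest precursors, with 22 counts in HC and 42 in NC under 100 bases. They were 144 and 162 from 100 to 1000 bases, and 77 and 147 above. In the middle group miR-6945 held 43 and 36 of the counts and miR-6948 held 16 and 24. Hairpins with and without counts had nearly the same composition, with a median of 57.3% and 57.03% G and C and the same median length of 66 bases. The reads were divided otherwise by form: 388 counts in HC and 705 in NC lay in the 15 with both ends met, and 243 and 351 in the 173 tailed ones. That difference rests on miR-7068, without which the 15 held 53 and 111.

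**Figure D3:**
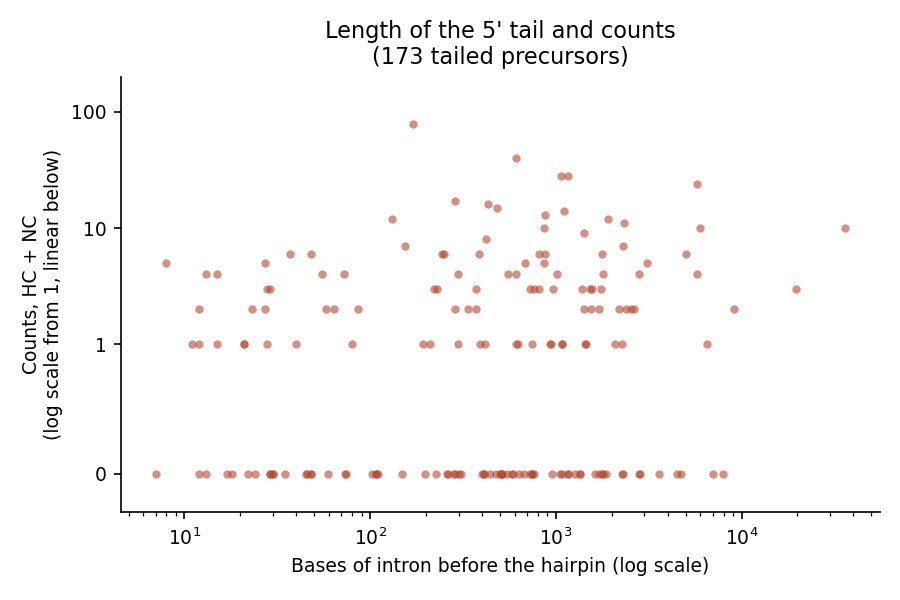
Counts summed over HC and NC (vertical axis, log scale from 1) against the bases of intron before the hairpin (horizontal axis, log scale) for the 173 tailed precursors, 1 point each. The vertical axis is linear below 1. Points at 0 and points at 1 or more counts both run along most of the range of tail lengths, and the highest point is miR-6945 with 79 counts after a tail of 171 bases.

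miR-7068 held the most counts. It had 335 counts in HC and 594 in NC, 51.3% and 53.9% of all counts in the 201 precursors. It is all 74 bases of intron 4 of Cherp (chr8:72470016-72470089 in mm10, minus strand), the gene of a calcium homeostasis protein of the endoplasmic reticulum that is also found with spliceosome components. A Cherp transcript without coding sequence has an exon over the hairpin, so its reads would be counted too. The level was 10.3 CPM in HC and 14.2 CPM in NC, a log2 ratio of HC over NC of -0.47. The nominal 95% interval ran from -0.67 to -0.27 (exact conditional binomial, counting error only, as for every interval of a ratio given here). miR-7068 was thus lower in the HC library by more than counting error. Its 3p seed, CACCCUG, is shared with miR-7018 in Hspg2, which had 0 counts in HC and 5 in NC, and with miR-7023, which had 0 in both.

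miR-6944 came next. It had 41 counts in HC and 97 in NC, or 1.25 and 2.32 CPM. It is all 96 bases of intron 9 of Dbn1 (chr13:55477681-55477776, minus strand), the gene of drebrin, which binds actin filaments. The log2 ratio was -0.89, with an interval from -1.45 to -0.34, lower in HC as for miR-7068. The neighbour of miR-6944, miR-6945, lies 29848 bases away. miR-6945 had 43 counts in HC and 36 in NC, or 1.32 and 0.860 CPM, and a log2 ratio of 0.61 (-0.06 to 1.29), whose interval holds equality. It excluded equality when plain precursor totals replaced TMM. miR-6945 lies at the 3′ end of a 239-base intron of Pdlim7 (chr13:55507625-55507692, minus strand), the gene of a PDZ and LIM domain protein of actin filaments. The annotation also holds an untranslated exon over that hairpin, so reads of that exon are counted with it.

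**Figure D4:**
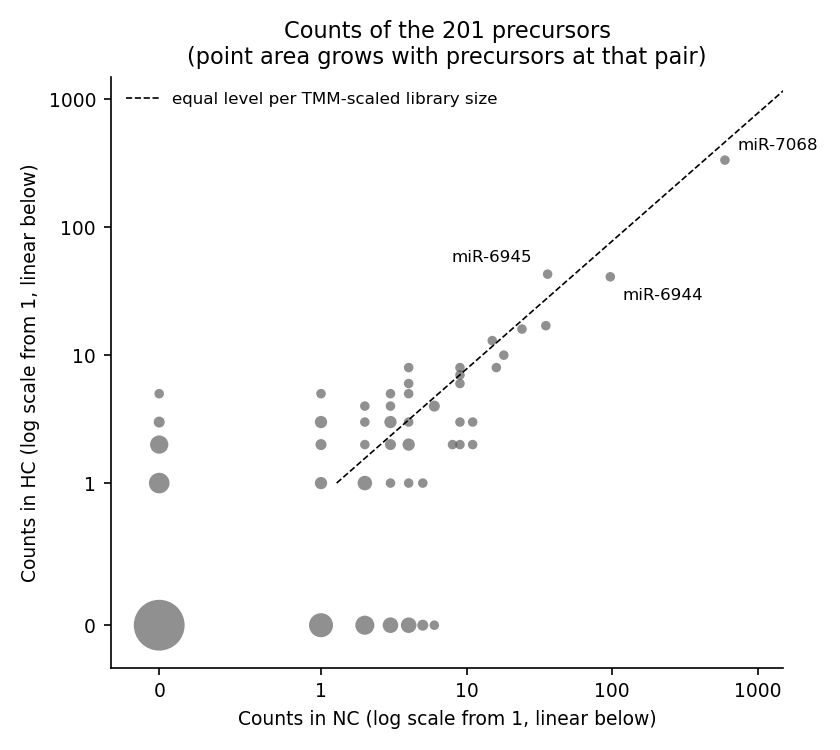
Counts in HC (vertical axis) against NC (horizontal axis) for the 201 precursors, both on a log scale from 1 and linear below; point area grows with the number of precursors at the same pair of counts. The dashed line marks equal level per TMM-scaled library size; miR-7068 (335 and 594) and miR-6944 (41 and 97) lie below it, and most points crowd near 0.

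Precursors from 24 to 52 counts in all lay in genes of varied function. miR-6901 at Sned1, the gene of an extracellular matrix protein, had 17 counts in HC and 35 in NC. The hairpin of miR-6901 (chr1:93274549-93274610) extends 6 bases into coding exon, so reads of the spliced or unspliced messenger could also overlap it. miR-6948 in Acin1, the gene of a protein of the exon junction complex, had 16 and 24. miR-6896 in Dst, the gene of the cytoskeletal linker dystonin, had 10 and 18, and miR-7015 in Smap2, the gene of an Arf GTPase-activating protein, had 13 and 15. miR-6990 had 8 and 16 and lies in Esrra, whose product is a nuclear receptor that drives mitochondrial genes. The interval held equality for each of these 5, so no difference was detectable at this depth. An Esrra transcript without coding sequence has an exon over the hairpin of miR-6990, so its reads would be counted too.

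Several hosts relate to lipid, vessel wall or muscle biology, but their precursors were scarce. miR-6922 lies in Srebf1, the gene of a transcription factor of fatty acid synthesis, and had 7 counts in HC and 9 in NC, a log2 ratio of -0.01 (-1.67 to 1.59). A Srebf1 transcript without coding sequence has an exon over the hairpin of miR-6922. The other Srebf1 precursor, miR-6921, had 0 in both. miR-7018 in Hspg2, the gene of the basement membrane proteoglycan perlecan, is given above. miR-6923 in Myh3, the gene of embryonic myosin heavy chain, and miR-7005 in Lama5, the gene of a laminin chain, had 0 in both libraries. Of the host genes listed for muscle, matrix and lipid metabolism, these 4 held 5 of the 201 precursors, 2 of them with counts. Counts of a precursor do not measure the messenger of its host.

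The remaining precursors among the 20 with the most counts had 17 or fewer in all. miR-7093 in Armcx3, whose product sits on mitochondria, had 8 in HC and 9 in NC, and miR-6911 in Dazap1, the gene of an RNA-binding protein, had 6 and 9. miR-7019 in Pink1, the gene of a kinase that marks damaged mitochondria, had 3 and 11, and miR-7007 in Cpa3, the gene of a mast cell carboxypeptidase, had 2 and 11. miR-6960 in Troap had 3 and 9, miR-6964 in C2cd2 had 2 and 9 and miR-6899 in Klf7 had 2 and 8. These 5 had fewer counts in HC, yet each interval held equality; that of miR-7007 ran from -5.32 to 0.09, and from -5.43 to -0.02 with the authors' denominators, which excludes equality. Higher counts in HC stood for miR-7063 in Ap2a2, the gene of a clathrin adaptor subunit, with 8 and 4, and for miR-6970 in Skiv2l, with 6 and 4. miR-7021 in Prdm2 and miR-7035 in Rasa4 each had 4 and 6. The annotation also holds an untranslated Pink1 exon over the hairpin of miR-7019. Transcripts without coding sequence have an exon over the hairpins of miR-6970 (Skiv2l) and miR-7035 (Rasa4). Reads of these exons would be counted too.

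Precursors seen in 1 library had at most 6 counts, as among the 986 others. In HC alone they were led by miR-6998 in Fubp3 with 5 counts, then miR-6961 in Bin2 and miR-7064 in Cars with 3 each. The interval of the log2 ratio began at 0.23 for miR-6998, which excludes equality. In NC alone they were led by miR-6979 in Diaph1 with 6 counts and miR-7004 in Atp9a and miR-7018 with 5 each. Their intervals reached up to 0.12 for miR-6979 and 0.48 for the other 2, so all 3 held equality.

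The summed counts of the 201 precursors were lower in HC beyond counting error. Their summed level was 19.98 CPM in HC and 26.4 CPM in NC, a log2 ratio of -0.40 (-0.54 to -0.26), or 0.758-fold. The ratio was -0.32 (-0.53 to -0.12) without miR-7068 and -0.30 (-0.56 to -0.04) without the 5 most abundant. Those 5 include miR-6945, whose own ratio was above 0 (0.61). A sum without only miR-7068 and miR-6944 was not computed, so a shift shared by the rest was not shown. Precursors with both ends met stood at -0.50 (-0.69 to -0.32) and tailed ones at -0.17 (-0.42 to 0.07), whose interval held equality. The first value rests on miR-7068 and miR-6944. They held 335 and 41 of the 388 counts with both ends met in HC, and 594 and 97 of the 705 in NC. The sum of the 248 other precursors with at least 10 and under 1000 counts in all stood at 0.00 (-0.02 to 0.03). Some other sums were also lower in HC. That of the 121 precursors above miR-7093 stood at -0.22 (-0.39 to -0.06). That of all 986 other precursors, which the most abundant miRNAs dominate, stood at -0.13 (-0.13 to -0.13). Other sums were not lower: the 37 other precursors at an intron 3′ end stood at 0.11 (0.01 to 0.22), higher in HC. The 337 from miR-1000 to miR-6895 stood at 0.00 (-0.01 to 0.01). Markers of other cell types varied in direction, and their ratios are given without intervals. All 3 listed for epithelium and skin and both listed for nerve were lower in HC, with log2 ratios from -0.85 to -0.20 and from -0.74 to -0.27. Their summed levels were 69.5 CPM in HC and 86.7 in NC, and 5.63 and 9.10. The nerve miRNA miR-124-1 had only 22 counts in HC and 34 in NC. Both erythrocyte miRNAs were higher (0.32 and 0.62), summed 608.8 against 467.9 CPM, and the 3 leukocyte miRNAs ran from -0.75 (miR-150) to 0.44, summed 2266 against 2259 CPM. The endothelial miR-126a stood at 0.03, none of these markers was at 0, and their part in the sum of the 201 was not tested. Whether the sums of these groups differ between animals could not be tested. In bulk tissue, fewer cells of a type and less RNA per cell cannot be told apart, and transcription or splicing of the host genes was not measured.

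Single precursors rarely differed beyond counting error at this depth. With at least 10 counts in all, 15 of 20 had a log2 ratio below 0 and 5 above, with a median of -0.35 (14 and 6 with plain totals, under which miR-6922 changed sign). Among the 248 others of that range up to 1000 counts, 135 (54.4%) were below 0 and the median was -0.08. The interval lay below 0 for 2 of the 20 (miR-7068 and miR-6944) and above 0 for none. From 10 to under 1000 counts, the range that holds all 20, the interval lay below 0 for 15.3% of all 268 precursors and above 0 for 13.1%, so 2 of 20 is no excess. Over any count, the interval lay above 0 for 1 of 118 and below 0 for 2, where the background over all 755 precursors with counts was 16.2% and 17.6%. The shares over any count are not at like depth either: 20 of the 118 had at least 10 counts in all, against 473 of the 755.

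A size rule asked for a 2-fold difference and an interval that excludes equality. Only miR-7068 had a mean of at least 10 CPM, and it did not pass, where 1.35% of all 222 precursors at that level were called higher in HC and 0.901% lower. Nor did it pass at 1.5-fold, where 2.7% were called higher and 4.5% lower. With the minimum mean lowered to 1 CPM, 3 could be compared (miR-7068, miR-6944 and miR-6945) and none passed, against 2.39% of all 335 called higher and 1.49% lower. The value of miR-6944 in NC, 1.85-fold that in HC, stayed under the limit. With no minimum level, 1 of 118 precursors with counts (miR-6998) was called higher and none lower, against 2.65% and 1.99% of all 755.

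**Figure D5:**
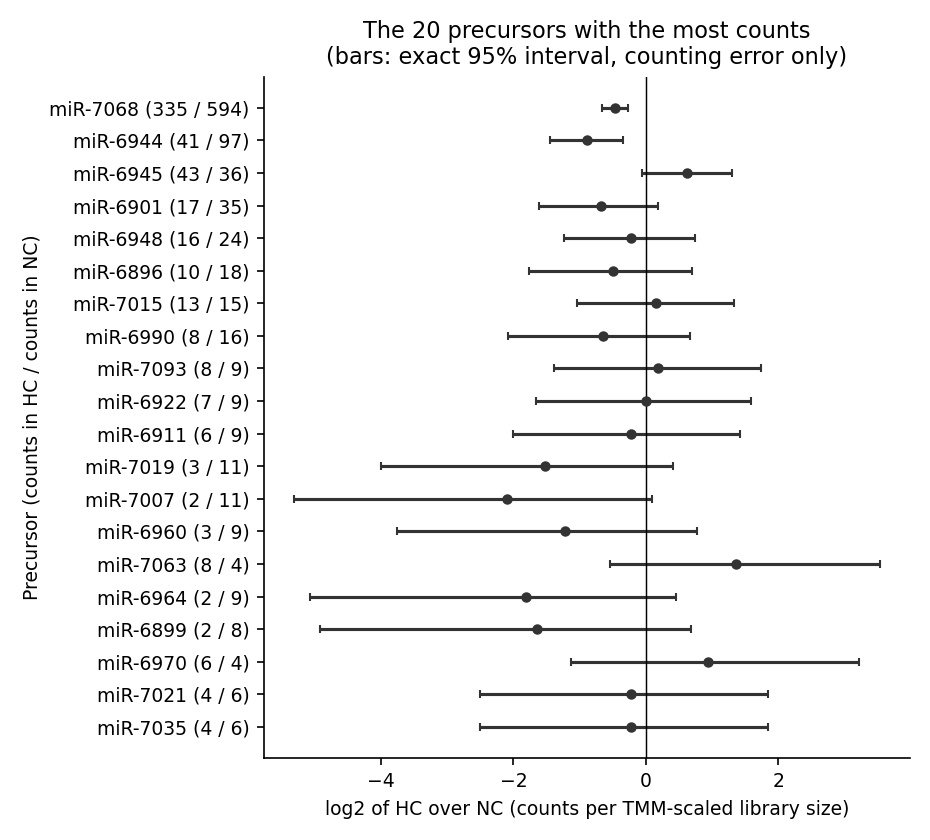
Log2 ratio of HC over NC per TMM-scaled library size (horizontal axis) for the 20 precursors with the most counts (vertical axis, with counts in HC / NC); bars are exact 95% intervals of counting error. The bars of miR-7068 (-0.47) and miR-6944 (-0.89) lie below 0, and the other 18 cross it.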

How the data were processed

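Small RNA was counted in 1 HC and 1 NC library. The labels' protocols give Trizol and mirVana extraction and TruSeq small RNA libraries. HTSeq 0.5.4, TopHat2 2.0.10, CASAVA 1.8.2 and mm10 are listed in the submitters' processing notes without their roles. No source used here gives the trimming or the treatment of reads with several alignments. The deposited tables hold whole-number read counts per precursor and summary rows, which stayed out of library sizes. The deposited RPM column sums to over 1000000, so it was taken as a signal on the authors' own scale and used for an alternative scaling.

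TMM sizes came from edgeR 4.0.16 (R 4.3.3), without its tests, because each group has 1 library. Ratios, apart from those of the muscle and other cell type miRNAs, have exact conditional binomial 95% intervals. Shares have exact Clopper-Pearson ones (scipy 1.17.1). The intervals of ratios and the limit of 3 counts cover counting error only, and reads without molecular identifiers need not be independent molecules. The intervals of shares treat the precursors of a range as independent draws. They cover neither counting error nor the spread between animals. The calculation was tested on simulated counts. Hosts and introns came from GENCODE M21 (GRCm38, the assembly of mm10), taking the transcript whose intron ends fitted best. RefSeq sequences were matched by coordinates. Named precursors were the top 20 by counts, up to 3 for each library among those without counts in the other, those past the size rule and those with counts in listed host genes. Those named for their position, a shared seed or a listed host without counts fall outside this rule and were chosen after their values were seen. The members and lists were chosen with earlier results of these data known. Alternatives covered scaling, filters, detection limits, copies, the most abundant members and intron settings.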

Additional observations from a re-analysis of the deposited data

Results flagged for a closer look

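Reads that fell in no miRNA precursor entered none of the comparisons, and their share was larger in HC (55.9%) than in the control library NC (44.1%).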

How the results depend on the processing

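The number of precursors with counts depends on what counts as detected: with at least 3 reads it fell to 33 in HC, 50 in NC and 24 in both, and with at least 10 reads to 7, 10 and 7. Thinning NC to the HC total left an expected 84.6 in NC and 48.5 in both. Leaving out copies or precursors over other small RNA genes changed none of these counts. The log2 ratio of the summed counts stayed below 0, with an interval that excludes 0, in all 7 alternatives tried. It ran from -0.51 with the authors' denominators to -0.27 with plain totals. None of these alternatives left out only miR-7068 and miR-6944. The size rule gave 1 higher precursor with no filter (miR-6998, at 5 and 0 counts) and none in the other settings. Plain totals shift each log2 ratio by 0.13 and the authors' denominators by -0.11. Across the 4 scalings, 80 of 80 recomputed ratios of named precursors stayed inside their TMM interval, and 1 precursor, miR-6922, changed sign. With plain totals the interval of miR-6945 lay above 0, and with the authors' denominators 3 intervals lay below 0 in place of 2, that of miR-7007 being the third. With 10 bases allowed from an intron end, the exon class held 1 precursor in place of 8, because the 7 that run 6 or 7 bases past the end then count as meeting it. No paired analysis was possible because each group holds 1 library, and for the same reason no library could be left out. Depth limits the ratios: at 6 and 4 counts, the interval of miR-6970 ran from -1.13 to 3.21.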
